A study of Mus musculus with 6 samples.

Results

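Genes that mark megakaryocytes and platelets were followed in livers of newborn mice whose mothers had eaten 1 of 3 oils. The 9 genes, taken by name, were Pf4, Ppbp, Itgb3, Itga2b, Gp9, Gp5, Gp6, Treml1 and Vwf. For each, the brightest probe annotated to that symbol alone was used. Of the 9 genes listed, 8 had such a probe, out of 19938 genes in all, and each of the 8 had a single one. Gp6, the platelet collagen receptor, was not analysed here. Genes whose log2 signal averaged 5 or more over the 6 arrays were tested, which held for 7 of the 8 and for 10977 genes in all. Gp5 lay just under that minimum, so its values are given with no test.

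Every animal was C57Bl6/J, and the groups differed in the dams' food. Dams 4 to 5 weeks of age were fed 6 g% of soybean oil (the Control group), of flaxseed oil (the ALA group, for alpha-linolenic acid, given as 31.6% in that diet) or of coconut oil (the SFA group, for saturated fatty acids, given as 48.51%). Per the labels, livers were excised no later than 1 day after birth, and RNA from pools of 3 livers was hybridised in duplicate, which gives 2 Affymetrix arrays per diet, named here by diet and replicate number (Control 1, Control 2 and so on). The labels give no sex, no litter and no perfusion of the livers, so blood in the vessels may be part of each pool. They also do not say that duplicate pools came from separate animals. The p-values then measure only the spread between these arrays, which may be technical where duplicates came from 1 pool.

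Megakaryocytes are the large polyploid cells that shed platelets. Before birth they are made in the liver from blood progenitors, and production moves to the bone marrow and spleen around birth. Their granules hold the chemokines encoded by Pf4 and Ppbp together with von Willebrand factor, and their surface carries the fibrinogen receptor (the integrin alphaIIb beta3, from Itga2b and Itgb3), the von Willebrand factor receptor (GPIb-IX-V, with subunits from Gp9 and Gp5) and the collagen receptor GPVI. Itgb3 and Vwf are not particular to the lineage, since endothelial cells also express them. In these pools of liver, which cells gave the signal of each gene was not tested.

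The arrays carried the hepatocyte signal of liver, with albumin (Alb) between 12.58 and 12.75 on all 6. Duplicates correlated across the tested genes at r = 0.977 (Control), 0.978 (ALA) and 0.986 (SFA). Several genes outside the 9 separated the diets, and were chosen after their values were seen. The fetal liver gene Gpc3 was at 4.03 and 4.07 on the control arrays, below the background level of those arrays (defined below), and between 6.64 and 8.11 on the other 4. The perinatal cytochrome P450 gene Cyp3a16 was at 4.64 and 4.03 on the control arrays against 7.48 to 9.57, and the proliferation gene Mki67 at 4.77 and 4.82 against 6.87 to 7.97. Xist, which is transcribed in female cells, was at 10.67 and 8.34 on the control arrays, at 3.76 and 4.24 on the ALA arrays and at 9.46 and 9.51 on the SFA arrays. The Y-linked gene Eif2s3y was at 3.63 and 7.95, at 7.74 and 7.80, and at 4.11 and 3.79 in the same order. The control arrays thus differed from the others in genes of liver maturity as well as in diet, and the pools differed in sex. Maturity and diet cannot be told apart in the comparisons with control. The sex signal also differed between groups. Both ALA arrays had the male signal and both SFA arrays the female signal, so sex and oil cannot be told apart in ALA against SFA. Genes of maturity differed between the oils as well. Cyp3a16 was at 7.48 and 8.80 on ALA against 9.57 and 9.39 on SFA, and Mki67 at 6.87 and 7.81 against 7.89 and 7.97. Gpc3 overlapped, at 6.64 and 8.11 against 8.05 and 7.96. The part of maturity in ALA against SFA was not tested. The control arrays also differed from each other in Eif2s3y, so they were not repeats of 1 pool and their spread may hold a difference in sex. The part of sex in the comparisons with control was not tested.

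Promoter sequences are shown for 4 of the genes, because 2 of them rose together from neighbouring positions on chromosome 5 (Pf4 and Ppbp) while the other 2 encode lineage-defining receptor subunits that did not pass the test or were not tested (Itga2b and Gp5). Each is the 250 bases before the annotated gene start, written 5′ to 3′ on the strand of the gene, from RefSeq on GRCm38.p6. Of the 9 genes, 7 had an entry, and Itgb3 and Vwf had none. Capitals mark matches, on either strand, to motifs bound by 2 families of megakaryocyte transcription factors: AGATAA or TGATAA for GATA factors, and AGGAAG or CCGGAA for ETS factors. The intervals are chr5:90772185-90772434 (plus strand) for Pf4, chr5:90768268-90768517 (plus strand) for Ppbp, chr11:102469884-102470133 (minus strand) for Itga2b and chr16:30310782-30311031 (minus strand) for Gp5.
Pf4: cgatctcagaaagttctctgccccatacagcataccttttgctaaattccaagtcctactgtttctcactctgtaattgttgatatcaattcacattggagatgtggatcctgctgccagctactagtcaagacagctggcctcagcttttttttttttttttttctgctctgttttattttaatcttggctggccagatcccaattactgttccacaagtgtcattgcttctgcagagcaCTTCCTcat
Ppbp: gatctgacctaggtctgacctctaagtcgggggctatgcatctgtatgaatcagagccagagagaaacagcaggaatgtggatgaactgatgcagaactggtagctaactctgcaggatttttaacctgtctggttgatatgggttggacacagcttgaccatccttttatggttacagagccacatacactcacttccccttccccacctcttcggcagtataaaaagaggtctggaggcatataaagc
Itga2b: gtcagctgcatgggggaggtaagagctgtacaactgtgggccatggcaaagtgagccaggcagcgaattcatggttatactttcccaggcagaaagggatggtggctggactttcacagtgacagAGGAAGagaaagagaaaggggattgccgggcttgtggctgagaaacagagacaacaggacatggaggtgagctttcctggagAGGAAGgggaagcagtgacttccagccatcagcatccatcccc
Gp5: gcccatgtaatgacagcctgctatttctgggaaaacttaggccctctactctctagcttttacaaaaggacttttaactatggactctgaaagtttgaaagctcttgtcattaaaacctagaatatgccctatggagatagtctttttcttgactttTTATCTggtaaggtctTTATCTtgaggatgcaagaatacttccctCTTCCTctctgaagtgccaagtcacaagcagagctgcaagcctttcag

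An ETS match lay 9 bases before the start of Pf4, on the strand opposite to the gene. No match of either family was in the Ppbp window. Itga2b held 2 ETS matches on its own strand, 125 and 43 bases before the start. Gp5 held 2 GATA matches, at 93 and 77 bases, and 1 ETS match at 48 bases, all on the opposite strand. Among the windows not printed, Gp9 held 1 ETS match, Gp6 held 1 GATA match and Treml1 held neither. Such letters are common: of 32851 promoter windows of the same length, 38.2% held an ETS match, 16.6% a GATA match and 5.44% both. The matches are a description of these letters and not of binding.

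Both oils were compared with soybean oil first. Pf4, Ppbp, Itgb3 and Vwf rose on the ALA diet and on the SFA diet, by 1.75-fold to 3.25-fold and by 1.94-fold to 8.0-fold. Itga2b, Gp9 and Treml1 did not pass the test in either comparison. In ALA against Control 4 of the 7 tested genes were called higher and none lower (limma, Benjamini-Hochberg adjusted p below 0.05), where 5.11% of all 10977 tested genes were called higher and 2.82% lower. In SFA against Control 4 of 7 were again called higher and none lower, where 6.62% of all tested genes were called higher and 7.15% lower. Both comparisons use the same 2 control arrays, so their likeness is not independent evidence. Other scalings of the arrays kept all of these calls, although over all genes they moved the SFA split from 727 higher and 785 lower to 962 and 528 (quantile), 952 and 585 (cyclic loess) or 1004 and 515 (centring on the 75th percentile). Over the 8 measured genes the median log2 difference was 0.56 on ALA and 0.69 on SFA, against -0.01 and -0.05 over all tested genes.

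The arrays of a diet lay wholly above both control arrays for 5 of the 7 tested genes on ALA and for 5 of 7 on SFA. Among all tested genes that held for 27.0% and 28.6%, so it is a common outcome with 2 arrays a group. The counts depended on single arrays: on ALA, 2 of the 7 were called without Control 1, Control 2 or ALA 1, and 3 without ALA 2 or either SFA array. On SFA, 3 were called without Control 2 or SFA 1, and 4 with any other array left out. In whole pooled tissue, a change in the number of cells of a type and a change in RNA per cell cannot be told apart.

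**Figure D1:**
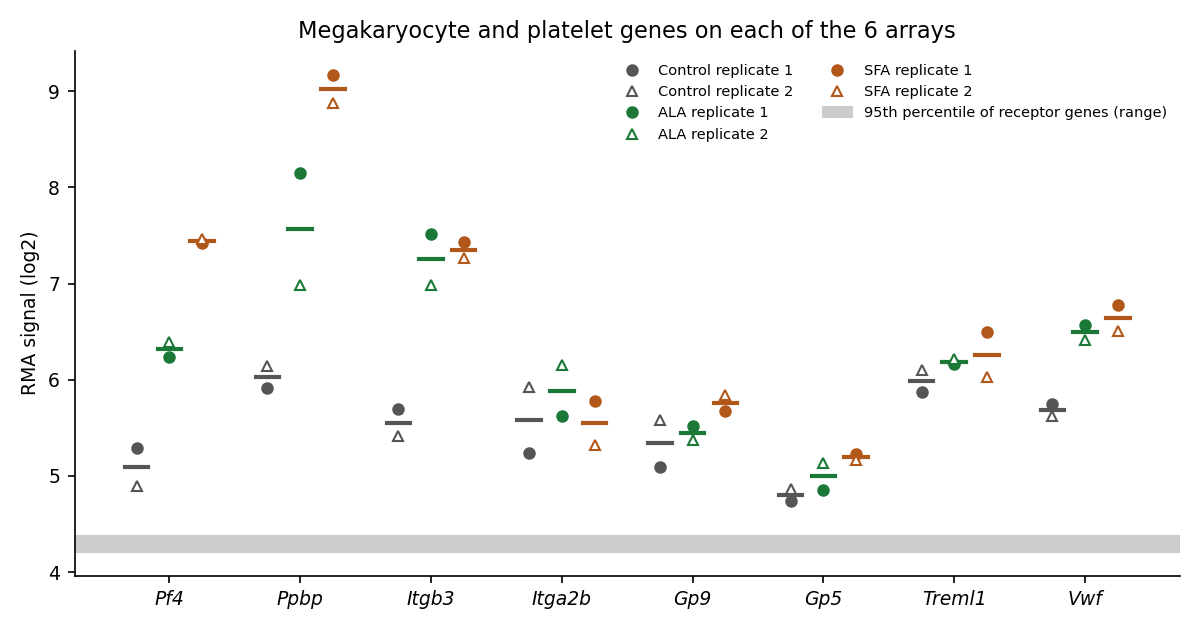
Log2 RMA signal of the 8 measured genes on each of the 6 arrays (filled circle, replicate 1; open triangle, replicate 2; bar, mean of 2 arrays), with the range over arrays of the 95th percentile of receptor genes that liver does not use as a grey band. Pf4, Ppbp, Itgb3 and Vwf sit higher on both oils than on both control arrays, while the Itga2b arrays of the 3 diets overlap and every value lies above the band.

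The background level was taken from 1190 olfactory and vomeronasal receptor genes, which liver has no known use for. Their 95th percentile ran from 4.21 to 4.37 over the arrays. All 8 genes were above it on all 6 arrays, so a reading for each was taken on every diet, although Gp5 on every array, Pf4 on both control arrays, Itga2b on Control 1 and SFA 2, and Gp9 on Control 1 were within 1 log2 unit of it.

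Pf4 and Ppbp encode the platelet alpha-granule chemokines CXCL4 and CXCL7, and they had the steepest differences of the 8 on the SFA diet. Pf4 was at 5.29 and 4.89 on the control arrays, 6.24 and 6.39 on the ALA arrays and 7.42 and 7.46 on the SFA arrays. The 3 diets did not overlap: control was low, ALA intermediate and SFA high. Pf4 rose 2.33-fold on ALA (log2 difference 1.22, SE 0.16, limma adjusted p = 0.00858) and 5.09-fold on SFA (2.35, SE 0.16, adjusted p = 0.00128), and it was called in all 14 alternative analyses of each comparison.

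Ppbp, whose product is processed to the neutrophil attractant NAP-2, was at 5.91 and 6.14 on the control arrays, 8.15 and 6.99 on the ALA arrays and 9.17 and 8.88 on the SFA arrays. Again control was lowest and SFA highest with no overlap, but the ALA arrays lay further apart than any other pair of duplicates among the 8 genes. Ppbp rose 8.0-fold on SFA (log2 difference 3.00, SE 0.35, adjusted p = 0.0050), which held in all 14 alternatives. On ALA it rose 2.92-fold (1.54, SE 0.35, adjusted p = 0.0427), and this was the least stable of the calls against control. Leaving out Control 1 (adjusted p = 0.164), Control 2 (0.136), ALA 1 (0.0589) or an SFA array (0.0745) ended the call, and the difference was 0.96 with ALA 1 left out and 2.13 with ALA 2 left out.

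Between the 2 oils, Pf4 was 2.18-fold lower on ALA than on SFA (log2 difference -1.13, SE 0.16, adjusted p = 0.0393). Oil and sex cannot be told apart in this comparison. Of the maturity genes, Cyp3a16 and Mki67 were also lower on both ALA arrays than on both SFA arrays, while Gpc3 overlapped. Their part was not tested. Pf4 was the only 1 of the 7 tested genes called lower, and none was called higher, where 0.437% of all tested genes were called lower and 1.09% higher. Over all genes the split of 120 higher and 48 lower became 34 and 34 (quantile), 42 and 34 (cyclic loess) or 42 and 58 (75th percentile centring, which moved the median of all genes from 0.04 to -0.07), and Pf4 was called lower under each. The call was lost whichever array was left out: the difference stayed between -1.20 and -1.05, with adjusted p from 0.0570 to 0.191. For Ppbp the difference was -1.46, with a 95% interval from -2.27 to -0.64 and an adjusted p of 0.0855, so it was not called. In 3 of the 7 tested genes (Pf4, Ppbp and Gp9) both ALA arrays were below both SFA arrays, as in 24.4% of all tested genes.

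The other genes around Pf4 and Ppbp were looked at after the values of these 2 were seen. In RefSeq order along chromosome 5 they are Rassf6, Cxcl5, Ppbp, Pf4, Cxcl3, Cxcl15, Cxcl1 and Cxcl2, a run of CXC chemokine genes beside the Ras association gene Rassf6. Cxcl5, Cxcl15 and Cxcl2 were above the receptor background on 0 of 6 arrays and Cxcl3 on 2 of 6. Cxcl1, a neutrophil attractant, was above it on all 6, but its log2 differences of -0.62 on ALA and -0.94 on SFA were not called (adjusted p = 0.453 and 0.200), with Control 2 at 7.23 and the other 5 arrays between 5.30 and 5.85. Rassf6, under the signal minimum and not tested, was lower by 0.72 and 0.80 on the log2 scale, with adjusted p of 0.0359 and 0.0173 when the minimum was removed. Thus among the measured genes of this stretch, Pf4 and Ppbp were the pair called higher, and the others either were near background, were not called or had lower readings on both oils.

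**Figure D2:**
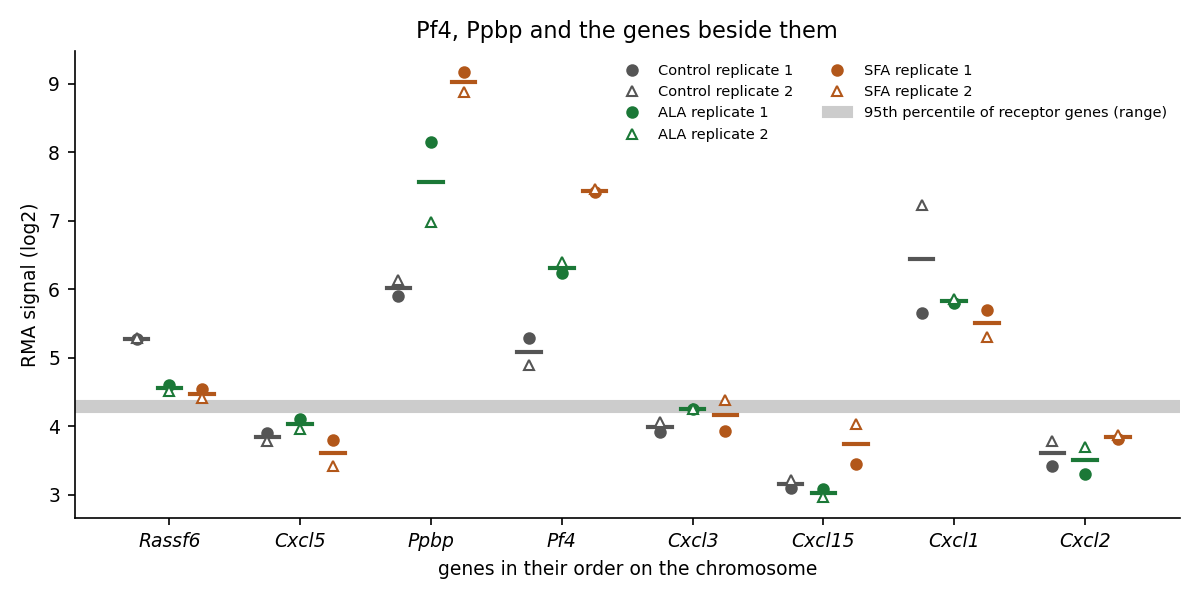
Log2 RMA signal on the 6 arrays for Ppbp, Pf4 and the measured genes beside them, in chromosomal order (points, arrays; bars, means of 2; grey band, range of the receptor background). Ppbp and Pf4 step up from control to ALA to SFA, while Cxcl5, Cxcl15 and Cxcl2 lie under the band and Cxcl1 has 1 high control array at 7.23.

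Itgb3 encodes the beta3 integrin chain, which pairs with alphaIIb on platelets and with alphaV on endothelial and other cells. It was at 5.69 and 5.41 on the control arrays, 7.51 and 6.99 on the ALA arrays and 7.43 and 7.27 on the SFA arrays. Both oils lay above control by more than a log2 unit, and the arrays of the 2 oils overlapped each other. Itgb3 rose 3.25-fold on ALA (log2 difference 1.70, SE 0.20, adjusted p = 0.00669) and 3.48-fold on SFA (1.80, SE 0.20, adjusted p = 0.00449), and both calls held in all 14 alternatives. The ALA-to-SFA difference was -0.10, with a 95% interval from -0.57 to 0.37.

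Itga2b encodes the alphaIIb chain, CD41, the partner of beta3 that restricts the fibrinogen receptor to the megakaryocyte lineage and early blood progenitors. It was at 5.23 and 5.93 on the control arrays, 5.62 and 6.15 on the ALA arrays and 5.78 and 5.32 on the SFA arrays. The 3 diets overlapped, and in each diet the duplicates lay further apart than the group means. The log2 difference was 0.30 on ALA (95% interval -0.37 to 0.98, adjusted p = 0.568) and -0.03 on SFA (-0.71 to 0.65, adjusted p = 0.953), the latter turning to 0.06 to 0.13 under the 3 other scalings of the arrays. Both intervals lie below the differences measured for Itgb3, which were 1.70 and 1.80, but the contrast between the 2 chains was not itself tested. Over the 6 arrays the correlation of Itgb3 with Itga2b was r = 0.05, a description over arrays that share the diets.

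Gp9 and Gp5 encode the glycoproteins IX and V of the GPIb-IX-V complex, by which platelets catch on von Willebrand factor under flow. Gp9 was at 5.10 and 5.58 on the control arrays, 5.52 and 5.37 on the ALA arrays and 5.67 and 5.84 on the SFA arrays. Both SFA arrays were above both control arrays, by little, and the ALA arrays fell within the control range. The difference was 0.11 on ALA (95% interval -0.32 to 0.54, adjusted p = 0.766) and 0.42 on SFA (-0.02 to 0.85, adjusted p = 0.169).

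Gp5 was at 4.74 and 4.87 on the control arrays, 4.86 and 5.13 on the ALA arrays and 5.23 and 5.17 on the SFA arrays. Its SFA arrays also lay above both control arrays, and its ALA arrays overlapped them. The log2 differences were 0.19 and 0.39. With the signal minimum removed, so that Gp5 was tested with all genes, its adjusted p was 0.642 on ALA and 0.168 on SFA. The other subunit genes of the complex, Gp1ba and Gp1bb, were not analysed here.

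Treml1 encodes TLT-1, a receptor stored in alpha granules and brought to the surface of activated platelets. It was at 5.87 and 6.11 on the control arrays, 6.16 and 6.21 on the ALA arrays and 6.50 and 6.02 on the SFA arrays. The ALA arrays narrowly cleared the control arrays, and SFA 2 lay within them. The differences were 0.20 on ALA (95% interval -0.23 to 0.63, adjusted p = 0.552) and 0.27 on SFA (-0.16 to 0.70, adjusted p = 0.343).

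Vwf encodes von Willebrand factor, the ligand that tethers platelets to injured vessel walls, and is made by endothelial cells as well as megakaryocytes. It was at 5.75 and 5.62 on the control arrays, 6.57 and 6.42 on the ALA arrays and 6.78 and 6.51 on the SFA arrays. Both oils lay above control without overlap, and they overlapped each other. Vwf rose 1.75-fold on ALA (log2 difference 0.81, SE 0.15, adjusted p = 0.0232) and 1.94-fold on SFA (0.96, SE 0.15, adjusted p = 0.0104). The ALA call was lost without Control 1, Control 2, ALA 1 or ALA 2 (adjusted p = 0.0627, 0.114, 0.0842 and 0.0645), and the SFA call without Control 2 or SFA 1 (0.0645 and 0.0664).

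**Figure D3:**
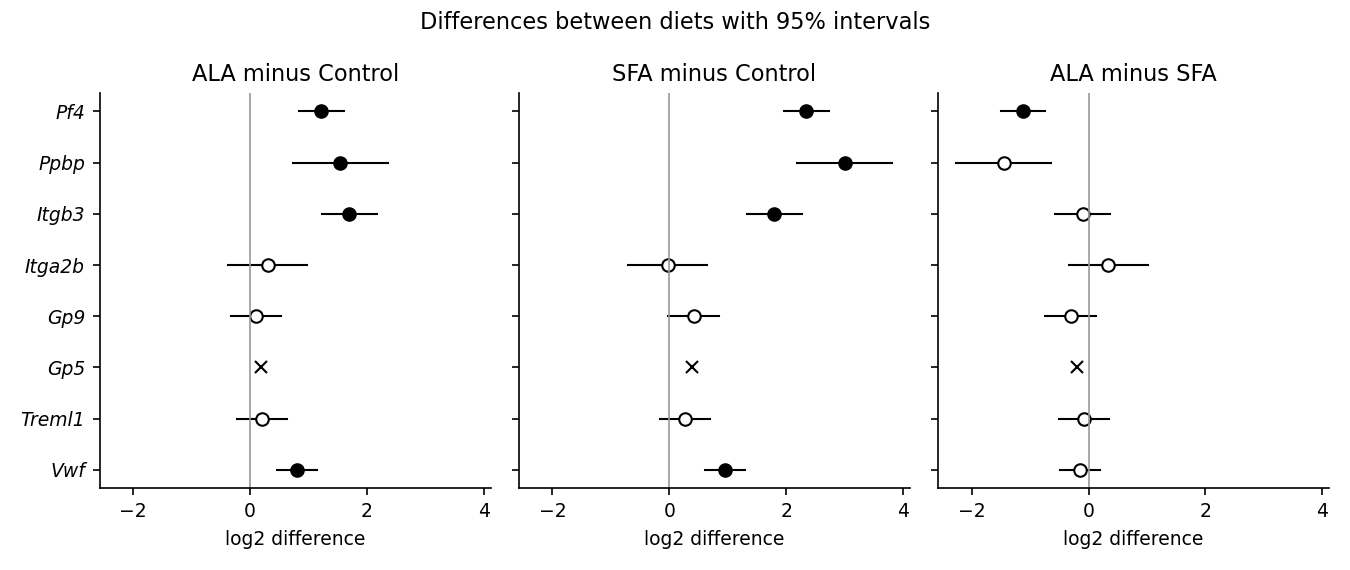
Log2 difference of each gene with its 95% interval in the 3 comparisons (filled, called at an adjusted p below 0.05; open, tested and not called; cross, Gp5, not tested). Pf4, Ppbp, Itgb3 and Vwf are called against control on both oils, with 8.0-fold for Ppbp on SFA the largest, and in ALA against SFA only Pf4 is filled.

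The 8 genes did not share 1 pattern. Over the 6 arrays the closest pairs were Itgb3 with Vwf (r = 0.985) and Pf4 with Ppbp (r = 0.934), while Itga2b had r of -0.08 with Pf4. Correlations across these pairs were nearly as high, at 0.911 for Vwf with Ppbp, 0.910 for Vwf with Pf4, 0.889 for Itgb3 with Ppbp and 0.876 for Itgb3 with Pf4. Pf4 with Gp5 had 0.861. All of these share the same 6 arrays and diets.

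The tested genes most like Pf4 over the 6 arrays, among 1584 with a range of at least 1 log2 unit, were Insig2, Slc1a4, Acmsd, Mpzl1 and Nt5dc2 (Pearson r from 0.983 to 0.998). Insig2 encodes a sterol-sensing regulator of cholesterol synthesis, Slc1a4 a neutral amino acid transporter and Acmsd an enzyme of tryptophan breakdown. Such likeness was common, since 171 of the 1584 had r above 0.9 with Pf4. The genes most like Vwf were Fhl1, Gpx8, Rhoj, Entpd1 and Morc4 (r from 0.988 to 0.996), among 248 of 1584 above 0.9. Rhoj encodes an endothelial small GTPase, and Entpd1 encodes CD39, which degrades the platelet agonist ADP. For Itga2b only 2 of 1585 genes exceeded 0.9, Zyg11a (0.936) and Map2k6 (0.914), followed by Snord49b, Cirbp and Setdb2 (0.819 to 0.837).

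A wider list of 40 other megakaryocyte and platelet genes covered transcription factors, receptors, granule proteins, signalling and the cytoskeleton. It held 35 genes with a probe, of which 23 were tested. On ALA 2 of the 23 were called higher and 1 lower, and on SFA 3 higher and 2 lower. The shares over all tested genes were 5.11% higher and 2.82% lower on ALA, and 6.62% and 7.15% on SFA, so these few calls are near the general rate. The median log2 difference over the 35 was 0.15 on ALA and 0.23 on SFA, with 23 and 22 of the 35 above 0. Most of the list therefore did not pass the test on either oil.

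Thrombospondin 1 (Thbs1), an alpha-granule protein that stromal cells also secrete, was at 5.09 and 4.71 on the control arrays, 6.81 and 5.94 on the ALA arrays and 7.40 and 7.26 on the SFA arrays. Like Pf4, it stepped up from control to ALA to SFA without overlap. Thbs1 rose by 1.48 on the log2 scale on ALA (SE 0.28, adjusted p = 0.0267) and by 2.44 on SFA (SE 0.28, adjusted p = 0.00501). The regulatory myosin light chain gene Myl9, expressed in megakaryocytes and in smooth muscle, was at 4.97 and 4.76 on the control arrays, 6.14 and 7.07 on the ALA arrays and 7.12 and 7.34 on the SFA arrays. Both oils lay clear of control, and the highest ALA array fell just short of the SFA arrays. Myl9 rose by 1.74 on ALA (SE 0.28, adjusted p = 0.017) and by 2.36 on SFA (SE 0.28, adjusted p = 0.00534). Pleckstrin (Plek), a protein kinase C substrate of platelets and leukocytes, rose by 0.80 on SFA (adjusted p = 0.0447) and was at 0.45 on ALA (adjusted p = 0.223).

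Zfpm1 encodes FOG-1, the cofactor of GATA-1 in erythroid and megakaryocyte development. It was at 8.13 and 7.86 on the control arrays, 7.25 and 7.19 on the ALA arrays and 7.32 and 7.22 on the SFA arrays, so both oils lay below control. Zfpm1 fell by 0.78 on the log2 scale on ALA (adjusted p = 0.0227) and by 0.72 on SFA (adjusted p = 0.0208). The kinase gene Mylk, also expressed in smooth muscle, fell by 0.56 on SFA (adjusted p = 0.0404), and it was 0.90 higher on ALA than on SFA (adjusted p = 0.0402). Gata1 itself, the lineage transcription factor, was between 4.49 and 5.01 and Nfe2, the factor of platelet release, between 4.27 and 5.14, so neither was tested.

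Leaving out 1 array changed several of these calls. The number of calls on ALA, 3 in all, was 2 without ALA 2 and 1 with any other array left out, and on SFA, 5 in all, it was 3 without Control 2, 2 without either SFA array, 4 without either ALA array and 5 without Control 1. On ALA, Myl9 was lost without Control 1 or 2 (adjusted p = 0.0552 and 0.0928), Thbs1 without Control 1 or 2, ALA 1 or either SFA array (0.0608, 0.135, 0.0568 and 0.0559), and Zfpm1 without Control 1, ALA 1 or 2, or either SFA array (0.0861, 0.0667, 0.092 and 0.0502). On SFA, Thbs1 and Myl9 held in all 14 alternatives, Zfpm1 was lost without Control 1, SFA 1 or SFA 2 (0.0821, 0.0839 and 0.110), and Plek and Mylk were called in 7 and 3 of 14 (adjusted p up to 0.185 and 0.171). The Mylk call between the oils was lost whichever array was left out, where the difference stayed between 0.84 and 0.96. Quantile scaling, 75th percentile centring and no signal minimum also ended it (limma adjusted p = 0.0545, 0.0513 and 0.0627). So did only the 4 arrays (0.0691) and the replicate block (0.0682), and the call held in 3 of 14 alternatives.

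Genes for the ligands, clearance receptors and plasma partners of platelets made a second list of 18, of which 16 were tested. On ALA 4 were called higher and none lower, and on SFA 3 and none, which is 25.0% and 18.8% higher against 5.11% and 6.62% of all tested genes. The list medians were 0.02 and -0.05. Those called were the collagens Col3a1 (1.22 on ALA, 1.32 on SFA) and Col1a1 (1.04 and 0.98), which bind GPVI and von Willebrand factor, and the endothelial scavenger receptor Stab2 (1.29 and 0.76). Factor VIII (F8), carried in plasma by von Willebrand factor, was called at 0.66 on ALA and was not called at 0.22 on SFA. The call of Col3a1 held in all 14 alternatives of both comparisons, and that of Stab2 in 14 on ALA and 8 on SFA. Those of Col1a1 held in 6 and 10 of 14 and that of F8 in 6. Without 1 array the list had 3 calls on ALA for ALA 1 and 2 for any other array, and on SFA 1 call for Control 2 or either SFA array and 2 for the rest. The fibrinogen alpha chain gene Fga (0.20 and 0.07) and Adamts13, the protease of von Willebrand factor (0.01 and -0.04), were not called.

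Markers of other cells moved with the 4 genes. Of the 19 tested endothelial markers, 9 were called higher on ALA and 9 on SFA, none lower. Over all tested genes 5.11% and 6.62% were called higher, and 2.82% and 7.15% lower. The medians over the 20 listed were 0.85 and 0.66. Below 0 were Cldn5 on ALA (-0.06) and Egfl7 and Sox17 on SFA (-0.30 and -0.07). Those called higher included the sinusoidal marker Lyve1 (2.67 and 1.94), Flt1 (1.51 and 1.51), Cdh5 (1.33 and 0.99) and Emcn (1.20 and 1.19). The summed log2 signal of the list was 130 to 142 on the control arrays, 153 to 154 on ALA and 149 to 150 on SFA, and all 20 were above the receptor background on every array. Their part in the rise of Itgb3 and Vwf was not tested. Leaving out Control 1 gave 12 endothelial calls on ALA, and Control 2 gave 4. There were 2 calls with ALA 1 left out, 1 with ALA 2 and 5 with an SFA array. On SFA it was 10 and 2 without Control 1 and Control 2, 6 without either ALA array, and 0 and 1 without SFA 1 and SFA 2.

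Of 12 tested Kupffer cell and macrophage markers, 12 were called higher on ALA and 9 on SFA, against 5.11% and 6.62% of all tested genes. Over the 13 listed markers the medians were 1.06 and 1.03. The complement genes C1qb (1.80 and 1.42) and C1qc (1.67 and 1.45) and Vsig4, a complement receptor of Kupffer cells (1.65 and 1.52), led them. Cd163, under the signal minimum and not tested, was at 0.18 on ALA and -0.41 on SFA. It was the only 1 of the 13 below 0 on SFA, and was above the receptor background on 3 of 6 arrays. Their summed signal was 91.4 to 93.0 on the control arrays, 104 to 109 on ALA and 103 to 104 on SFA. Kupffer cells clear platelets, and the part of this list in the results was not tested. On ALA the calls numbered 6 and 4 without Control 1 and Control 2, 5 without ALA 1 and 8 without ALA 2 or either SFA array. On SFA they numbered 7 and 2 without Control 1 and Control 2, 9 without either ALA array, and 1 and 3 without SFA 1 and SFA 2.

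Lists for blood lineages near the megakaryocyte had few tested genes. Among 7 tested erythroid markers of 16 listed, 2 were called higher on both oils, the red cell anion exchanger gene Slc4a1 (2.22 and 2.52) and the transferrin receptor gene Tfrc (2.17 and 2.51), which dividing cells also express. Ermap, an erythroid membrane gene, was called lower on SFA (-1.10) and higher on ALA than on SFA (1.49). The first Ermap call was lost without Control 2, SFA 1 or SFA 2 (difference -0.80, -1.14 and -1.05), and the second whichever array was left out (from 1.34 to 1.65). Quantile scaling, cyclic loess and no signal minimum also ended the second (limma adjusted p = 0.0545, 0.0508 and 0.0524). So did only the 4 arrays (0.0533) and the replicate block (0.0635), and the second call held in 3 of 14 alternatives. The summed signal of the 12 erythroid genes with a probe was 57.0 to 59.5 on the control arrays, 65.9 on both ALA arrays and 65.6 to 67.0 on SFA. Their median moved little, at 4.84 and 4.95 on the control arrays, 4.95 and 5.12 on ALA and 5.03 and 4.97 on SFA. Alas2, which enters the sum at 6.48 on Control 1 and 8.54 on Control 2, was not called on either oil. The globin genes were not analysed here. Of 9 tested blood progenitor markers 1 was called higher on each oil, Cd34 (1.08 and 0.96), which endothelium also expresses, and 1 of 9 is near the 5.11% and 6.62% of all tested genes. The stem cell factor receptor gene Kit was at 0.57 on ALA (adjusted p = 0.0723) and -0.03 on SFA (adjusted p = 0.928). The Cd34 call on ALA was lost without Control 2, either ALA array or either SFA array, with adjusted p from 0.0636 to 0.151, and that on SFA without Control 2 or either SFA array, from 0.106 to 0.160. The summed signal of the progenitor list was 64.5 to 65.9 on the control arrays, 68.4 to 69.3 on ALA and 66.1 to 66.3 on SFA.

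Granulocyte markers were higher on SFA in part. On SFA 2 of the 5 tested were called higher, the granule genes Ngp (1.44) and S100a9 (0.87), while limma called 0 of 5 on ALA, with 1 at an unadjusted p below 0.05. Over all tested genes 6.62% were called higher on SFA and 5.11% on ALA. The other tested markers, Elane (0.47), Camp (-0.06) and Prtn3 (-0.03), were not called on SFA. Ngp was lower on ALA than on SFA by a log2 difference of -1.27 (limma adjusted p = 0.0392), a call lost whichever array was left out (difference from -1.42 to -1.11). No signal minimum, only the 4 arrays and the replicate block also ended it (0.0524, 0.0570 and 0.0633), and the call held in 5 of 14 alternatives. The S100a9 call was lost without Control 1, either ALA array or either SFA array, with adjusted p from 0.0563 to 0.134. The summed signal of the 10 listed was 47.1 to 47.7 on the control arrays, 47.3 to 50.0 on ALA and 51.6 to 52.0 on SFA. Its part in the Pf4 and Ppbp differences was not tested. Of the 7 tested hepatocyte markers limma called 0 on either oil, with 0 on ALA and 1 on SFA at an unadjusted p below 0.05, and robust empirical Bayes moderation called 1 on SFA. On SFA all 7 differences were below 0, with a median of -0.13 against -0.05 over all tested genes. The sums of the 7 markers were 86.6 to 86.8 on the control arrays, 86.7 on ALA and 85.7 to 86.0 on SFA.

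**Figure D4:**
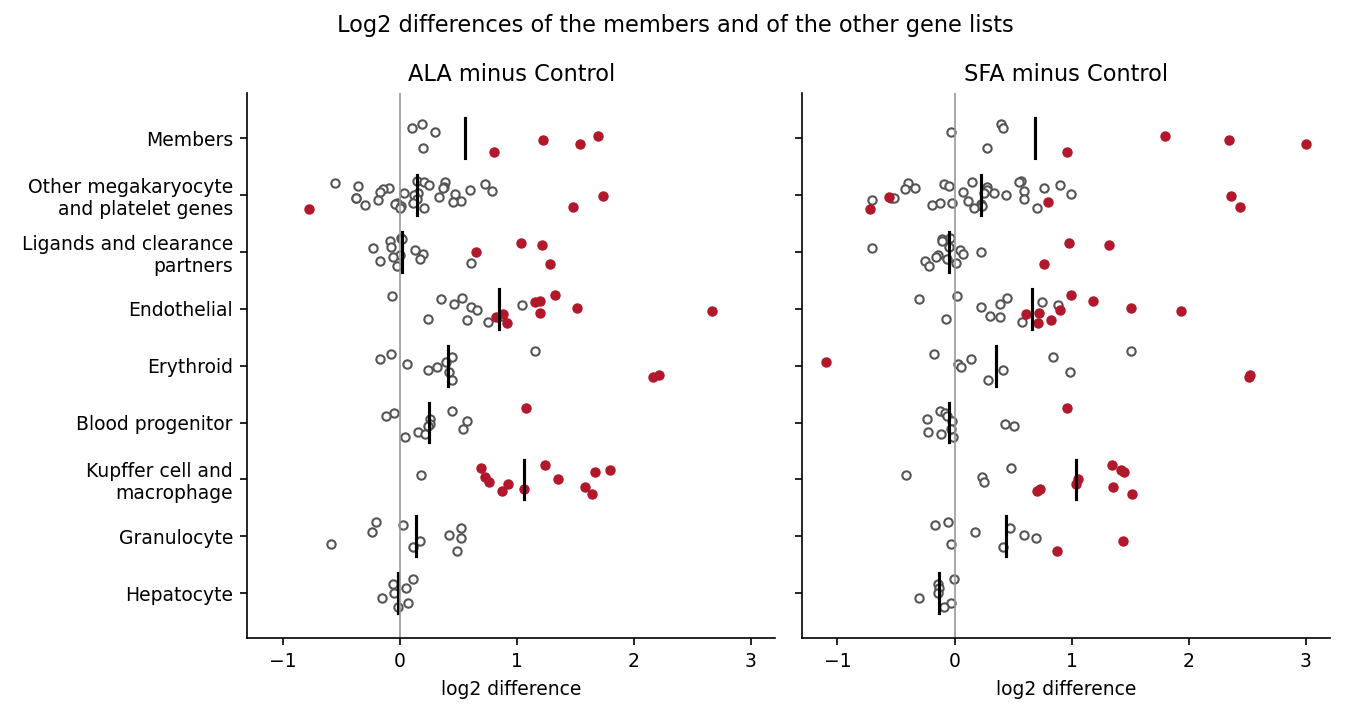
Log2 differences of every measured gene of each list, ALA minus Control on the left and SFA minus Control on the right (filled, called; open, not called or not tested; vertical bar, list median). The 8 genes reported here (top) split into 4 called and 4 not called, the 35 other megakaryocyte and platelet genes lie mostly near 0, and most endothelial and Kupffer cell markers lie above 0.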

How the data were processed

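Total RNA of pooled livers was hybridised to 6 Affymetrix arrays. The deposited values, made with RMA in Partek 6.6 per the submitters' processing notes, were read as log2 signals from their range of 1.98 to 13.12. Background settings and annotation version are not given in the sources used here. RMA as usually run draws arrays to 1 distribution of signals, which can hide a shift shared by most genes. The deposited arrays did not share 1 distribution. The highest value was 12.76 and 12.67 on the SFA arrays against 13.07 to 13.12 on the control and ALA arrays. The median of all probes was 4.76 and 4.82 against 4.90 to 4.96. Of 35556 probes, 21789 had 1 symbol in the platform annotation, 1621 had several and 12146 none. The brightest such probe stood for each of 19938 genes.

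Groups came from the sample titles. In R 4.3.3, limma 3.58.1 fitted a mean per diet to all 6 arrays (3 residual degrees of freedom), and two-sided p-values were adjusted by Benjamini-Hochberg over the 10977 tested genes. Errors are standard errors (SE) with n = 2 arrays a group. Fold changes are powers of 2 of log2 differences. Alternatives covered signal minimum, scaling, probe choice, moderation, left-out arrays, the 2 diets alone and a replicate block. The procedure was tested on simulated data. Other named genes were the 3 called with the largest differences per list and comparison, a few fixed by name, and the 5 most like Pf4, Itga2b and Vwf. The 9 genes and all lists were chosen with earlier results of these data known. Array number limits the precision.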

Additional observations from a re-analysis of the deposited data

How the results depend on the processing

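Over 3 comparisons and 14 alternatives, calls of the 7 tested genes were lost in 23 cases, and no further call was gained. No called value changed direction. Where 1 array was left out, the single array of that diet was assumed to vary like the other groups. The 23 belong to Ppbp and Vwf against control and to Pf4 in ALA against SFA. Beyond single arrays, Ppbp on ALA was lost with no signal minimum (adjusted p = 0.0502), robust moderation (0.0732) and only the 4 arrays compared (0.0745). Of the 7 tested genes, 2 to 3 were called on ALA and 0 in ALA against SFA when 1 array was left out. In ALA against SFA that count was also 0 with no signal minimum, with only the 4 arrays and with the replicate block. Over all genes, leaving out 1 array gave 267 to 475 calls on ALA against 871, 245 to 1428 on SFA against 1512 and 0 to 36 in ALA against SFA against 168. With only the 4 arrays, ALA had 448 calls and ALA against SFA 11. The latter had 32 with no signal minimum, 68 with quantile scaling, 76 with cyclic loess, 100 with 75th percentile centring, 421 with robust moderation and 0 with the block. Among the other megakaryocyte and platelet genes, ALA had 1 to 2 calls without 1 array, 1 with only the 4 arrays and 5 with the block. SFA had 2 to 5 calls without 1 array and 3 with no signal minimum. ALA against SFA had 0 to 0 calls without 1 array, 0 with no minimum, quantile scaling, centring, the 4 arrays or the block, and 2 with robust moderation. The cause of these shifts was not tested. The replicate numbers did not pair the arrays (correlations of same-numbered deviations -0.03, -0.004 and 0.02). With the replicate block, 4 of the 7 genes were called on ALA and 4 on SFA, out of 719 and 1232 calls over all genes, and Pf4 in ALA against SFA had adjusted p = 0.0662. With 2 arrays a diet the intervals are wide, and low signals such as that of Gp5 lie close to background.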
